A study of Mus musculus with 6 samples.

Results

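The Mir379 to Mir410 cluster is a row of miRNA hairpins in the imprinted Dlk1-Dio3 domain of mouse chromosome 12. It was taken here as every plus-strand miRNA gene of the count table in a window of chromosome 12 (mm10) around the noncoding gene Mirg and the hairpins before it, whose name is Mir followed by a number, which left out the host transcript Mirg itself. This gave 38 of the 1155 genes in the table. They run from Mir379 (109709060 to 109709125) to Mir3072 (109747878 to 109747960), a span of 38.9 kb, and all 38 have the same coordinates in GENCODE M21. The counts come from small RNA libraries of mouse embryonic fibroblasts, connective tissue cells grown from embryos, in medium with serum. Wild-type cells (WT) gave 3 libraries and Fbxw7 knockout cells (Fbxw7 KO) gave the other 3. The labels name no allele, Cre driver, embryo or passage. Replicates may thus share a source, in which case the p-values reflect technical spread.

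In the Dlk1-Dio3 domain the protein-coding genes are expressed from the paternal chromosome, and the long noncoding RNAs Meg3, anti-Rtl1, Rian and Mirg, with the miRNAs, from the maternal one. The hairpins of the cluster are cut by Drosha out of long maternal transcripts and then trimmed by Dicer to mature miRNAs, one from each arm (5p and 3p) of a hairpin. A mature miRNA finds its targets mainly through its seed, bases 2 to 8. Many of the hairpins resemble each other and are thought to descend from repeated duplication of one ancestor. The cluster is known from embryo, placenta and brain, where Mef2 activates it in neurons and miR-134, miR-329 and miR-485 act on dendrites and synapses. FBXW7, the gene product lost in the knockout, is the substrate-binding subunit of an SCF ubiquitin ligase, through which proteins such as Jun, Myc and Notch are degraded.

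RefSeq (GRCm38.p6) holds mature sequences for all 38 members, 71 arms with 65 different seeds. The arms below belong to the 5 members whose fall in Fbxw7 KO passed the test in the first fit and in all 13 of its alternatives. They are shown so that the members can be compared. The later fit relative to the cluster is not among these alternatives. Capitals mark the seed and reading is 5′ to 3′.
miR-543-3p: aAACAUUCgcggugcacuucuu
miR-495-3p: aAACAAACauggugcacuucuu
miR-543-5p: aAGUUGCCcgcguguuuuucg
miR-495-5p: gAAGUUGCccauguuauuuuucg
miR-409-5p: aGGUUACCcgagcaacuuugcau
miR-409-3p: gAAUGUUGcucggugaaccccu
miR-668-5p: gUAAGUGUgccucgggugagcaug
miR-668-3p: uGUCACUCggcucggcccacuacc
miR-380-5p: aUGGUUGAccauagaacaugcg
miR-380-3p: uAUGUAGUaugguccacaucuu
The 3p arms of Mir543 and Mir495 have the same base at 18 of 22 positions, but their seeds differ. The median over all 2452 pairs of arms from different members was 27.3% of positions.

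A seed is shared by members in only 6 cases, each time by 2 of them, and no mature miRNA outside the cluster in the RefSeq table has any of these 6 seeds. The most abundant pair, Mir379 and Mir411, share one through their 3p arms, and Mir379 shares another with Mir1193 through the 5p arms. Mir376b and Mir376c share one more. These arms are shown because their members did not all have like changes, as described further on.
miR-379-3p: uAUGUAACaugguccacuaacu
miR-411-3p: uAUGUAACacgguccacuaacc
miR-379-5p: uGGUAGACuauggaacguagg
miR-1193-5p: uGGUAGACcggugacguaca
miR-376b-5p: gUGGAUAUuccuucuaugguua
miR-376c-5p: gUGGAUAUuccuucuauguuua
miR-758-5p: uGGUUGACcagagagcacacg
miR-1197-5p: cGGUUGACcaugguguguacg
The other shared seeds are those of Mir494 with Mir410 and of Mir496a with Mir453, where the second of each pair stood at 0 counts.
miR-494-5p: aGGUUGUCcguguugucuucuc
miR-410-5p: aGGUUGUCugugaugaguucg
miR-496a-5p: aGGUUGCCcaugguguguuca
miR-453: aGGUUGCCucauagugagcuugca

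Libraries held 2932439 to 5019700 counts. Of the 1155 genes, 283 had enough counts to test, and the quasi-likelihood test of edgeR called 29 lower and 43 higher in Fbxw7 KO at an adjusted p under 0.05. With scaling factors taken from genes outside the domain these were 34 and 30. The fibroblast and mesenchymal miRNAs (12 of 13 with counts; Mir22, which overlaps its host row, at 0) held 60.5% to 62.2% of counts in 5 libraries and 66.6% in Fbxw7 KO replicate 3. Muscle miRNAs (3 of 7 with counts; Mir1a-1, Mir133a-1 and Mir133a-2 at 0, and Mir1a-2 at 0 where it overlaps another row) held 0.0141% to 0.023% in 5 libraries and 0.0409% in that same library. Neuronal miRNAs (9 of 12 with counts, none of them a member) held 0.065%, 0.0711% and 0.0614% in WT and 0.0604%, 0.0544% and 0.0455% in Fbxw7 KO. Their sum was lower in every KO library and lowest in replicate 3. Means in WT and Fbxw7 KO were 413.8 and 286.2 CPM for Mir132 and 100.1 and 70.31 CPM for Mir212. Not all of the list fell, as Mir128-1 had 144.9 and 155.7 CPM and Mir128-2 12.9 and 12.6 CPM. Epithelial miRNAs (7 of 7 with counts) held 0.00211% to 0.00262% in WT and 0.00618%, 0.00508% and 0.00168% in Fbxw7 KO. Most of that was Mir203, at 18.7, 20 and 19.2 CPM in WT and 59.3, 45.5 and 13.3 CPM in Fbxw7 KO. Mir200a, Mir200b, Mir200c, Mir141 and Mir205 had means of at most 1.21 CPM in either genotype. Blood cell and pluripotent miRNAs (4 of 6 and 4 of 13 with counts) held at most 0.000438%. Mir9-1, Mir302a to Mir302d and Mir367 were at 0, and so were Mir124a-1, Mir124a-2, Mir142, Mir155 and both endothelial miRNAs, Mir126a and Mir126b, but those 6 overlap another row, where a 0 says nothing of the level. The part of these lists in the results on the cluster was not tested. These libraries hold no measure of the targeted gene that was used here.

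Of the 38 members 31 had counts and 29 could be tested. The 7 at 0 counts in every library were Mir654, Mir134, Mir485, Mir453, Mir377, Mir410 and Mir3072. Of these, Mir134, Mir485, Mir377, Mir410 and Mir3072 lie inside exons of the Mirg row of the count table. By default featureCounts drops reads that fall on 2 features, and the recorded command does not change that, so the 0 of these 5 says nothing of their level. That includes Mir134, the best studied of the cluster in neurons, and Mir410, its usual end point. The Mirg row itself held 11, 8 and 8 counts in WT replicates 1 to 3 and 7, 2 and 5 in Fbxw7 KO. Mir654 and Mir453 overlap no other row, and for them 0 counts allow up to 3 counts, or 0.598 to 1.02 CPM (counts scaled by library size, as set out below) depending on the library, for counting error only. Mir299a had 3, 0 and 10 counts in WT and 1, 1 and 3 in Fbxw7 KO. It shares 49 bases with the antisense gene Mir299b, which reach both of its arms at least in part, in a count that ignored strand. Mir544 had 1, 2 and 1 counts in WT and 1, 0 and 1 in Fbxw7 KO.

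The tested members spanned a wide range of levels. In CPM over TMM-scaled library totals, counted per hairpin with no correction for length, Mir379 at one end of the cluster was the highest at a mean of 27550 CPM over the 6 libraries and Mir539 the lowest at 18.2, with a median of 356.7. Levels followed no order along the chromosome (Spearman's rho between mean level and position −0.02 over the 29 members, as a description, since the members share libraries and a precursor). Mir379 and Mir411 together held 56.4% to 57.2% of the cluster's counts in WT and 59.7% to 61.1% in Fbxw7 KO. With Mir381, Mir541 and Mir300, the next most abundant, they held 79.7% to 80.3% and 81.2% to 83.5%. A sum over the cluster is therefore mostly a sum over these few hairpins.

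**Figure D1:**
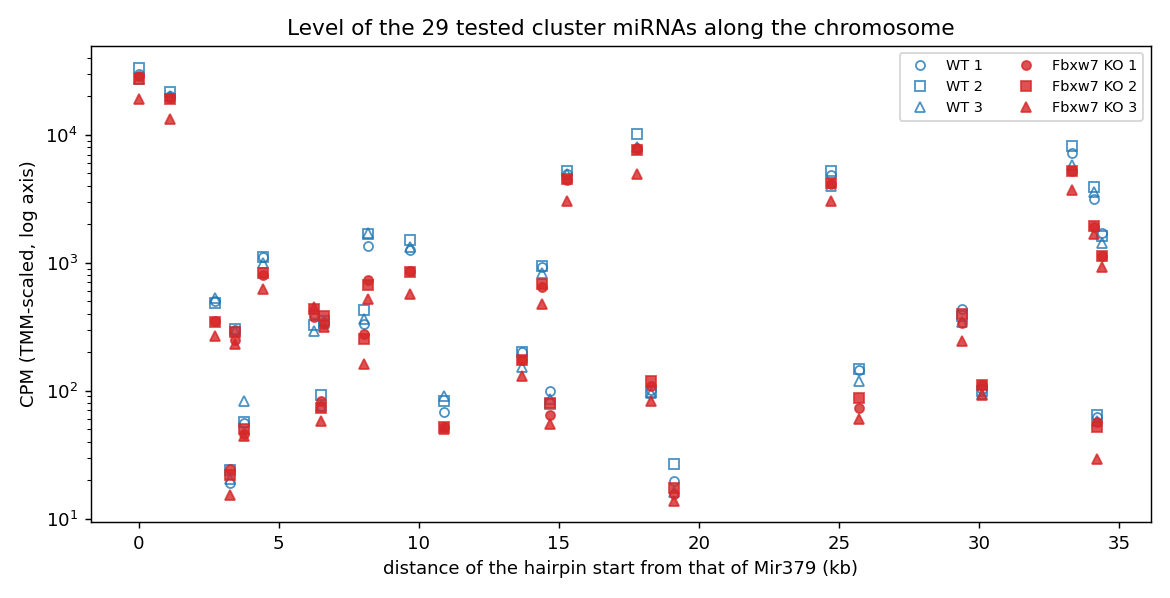
CPM (log axis) of the 29 tested members in each library against the distance of the hairpin start from that of Mir379 in kb, with open blue symbols for WT and filled red symbols for Fbxw7 KO. Mir379 and Mir411 at the left end lie highest, and the red triangles of Fbxw7 KO replicate 3 lie lowest at most positions.

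Summed over the cluster, WT libraries gave it 8.651%, 8.989% and 8.591% of all miRNA counts, a mean of 8.743% ± 0.215 (SD, n = 3). Fbxw7 KO replicates 1 to 3 gave it 7.904%, 7.705% and 5.626%, a mean of 7.078% ± 1.26 (SD, n = 3). Every Fbxw7 KO library was below every WT library, and replicate 3 was far below the other two. The difference of −1.67 percentage points was −0.939 without Fbxw7 KO replicate 3. The other miRNAs of the domain were also lower in most Fbxw7 KO libraries. Those of the Rian region (4 genes) held 0.3015% ± 0.0125 in WT and 0.1827% ± 0.0178 in Fbxw7 KO, without overlap. Those of the Meg3 and anti-Rtl1 region (15 genes) held 6.744% ± 1.3 and 4.607% ± 2.49 (SD, n = 3 each), with the second Fbxw7 KO library, at 7.005%, inside the WT range and replicate 3 the lowest of all at 2.041%. A large part of this sum is Mir127, which varied widely within each genotype. It had 51620, 26950 and 20040 CPM in WT and 19190, 42810 and 2082 CPM in Fbxw7 KO. Of the 9 tested genes in this region, 7 had KO libraries wholly below WT, against 20.1% of all 283 tested genes. The overlap of the sum thus does not hold for most of the 9. In bulk RNA a smaller share of cells that express the cluster and less of it per cell cannot be told apart.

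**Figure D2:**
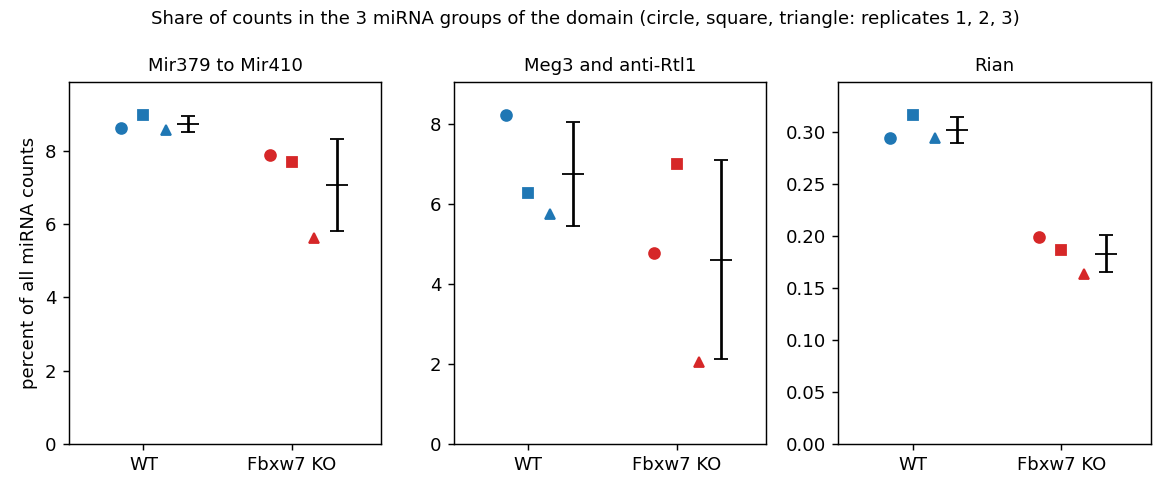
Percent of all miRNA counts in the Mir379 to Mir410 cluster, the Meg3 and anti-Rtl1 region and the Rian region for each library (circle, square and triangle are replicates 1, 2 and 3), with mean ± SD beside them and a separate vertical axis from 0 in each panel. The triangle of Fbxw7 KO is the lowest point in all 3 panels.

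In Fbxw7 KO fibroblasts 11 of the 29 tested members fell and 0 rose, while the other 18 missed the threshold (edgeR, adjusted p under 0.05). Among all 283 tested miRNA genes 10.2% were called lower and 15.2% higher. At an unadjusted p under 0.05, 12 members were lower and 0 higher, and DESeq2 called the same 11 and 0 higher. The median log2 fold change of the 29 was −0.40, against 0.05 over all tested genes, and 25 of the 29 were negative (46.6% of all tested genes), or 24 to 28 under other scalings. The log2 fold changes of the 11 ran from −0.50 to −1.29, and only Mir543 changed by 2-fold or more. The number called depended on the libraries used. Leaving out WT replicate 1 gave 6, WT replicate 2 gave 5, KO replicate 1 gave 7 and KO replicate 2 gave 5, each time all among the 11. The median was −0.17 without Fbxw7 KO replicate 3, where 10 of the 11 remained called.

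**Figure D3:**
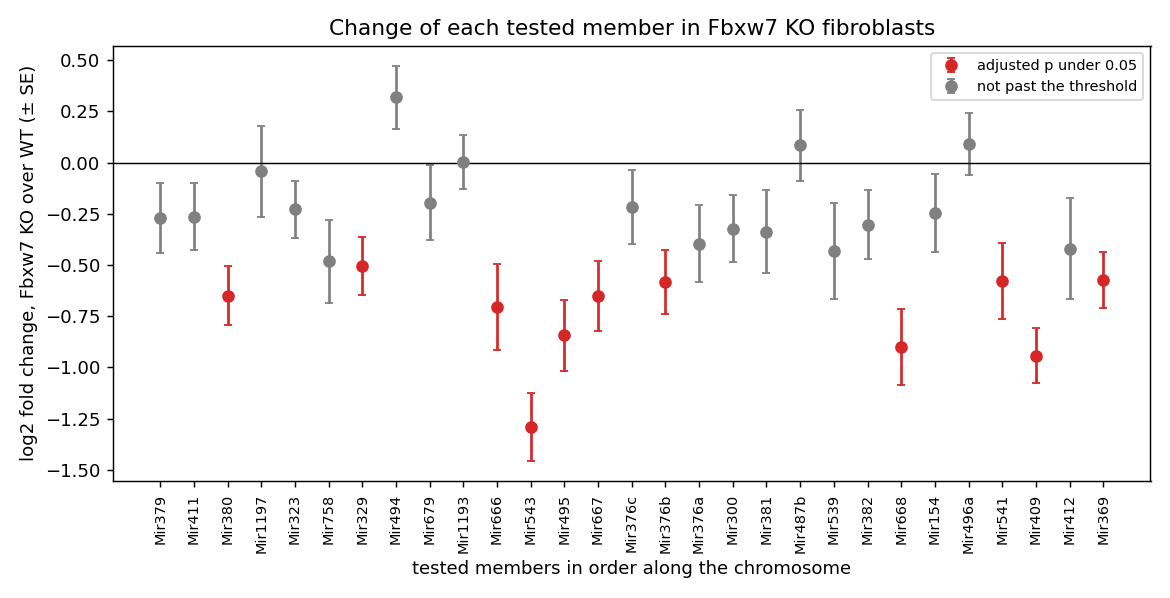
Log2 fold change of Fbxw7 KO over WT with its SE for the 29 tested members, in order along the chromosome, with those past an adjusted p of 0.05 in red. The 11 red points lie between −0.50 and −1.29 and are spread over the cluster, and 4 grey points lie at or above 0, of which Mir496a, Mir487b and Mir1193 turn negative with scaling factors from genes outside the domain.

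Mir543 (109717258 to 109717333) had the largest fall. It stood at 1338, 1676 and 1704 CPM in WT replicates 1 to 3 and at 738, 670 and 522 CPM in Fbxw7 KO, with every KO library far below every WT library. The log2 fold change was −1.29 (SE 0.167, edgeR adjusted p = 0.00108). Mir409 (109743158 to 109743236, in an intron of Mirg) was more abundant, with 3124, 3924 and 3536 CPM in WT and 1897, 1927 and 1685 CPM in Fbxw7 KO. The 3 KO libraries lay close together and well apart from WT (−0.94, SE 0.136, adjusted p = 0.00164).

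Mir668 (109734732 to 109734797) shares 1 base with the Mirg row, outside both mature arms. Its level was low, at 145, 148 and 119.8 CPM in WT and 73.5, 88 and 59.9 CPM in Fbxw7 KO. The groups did not overlap (log2 fold change −0.90, SE 0.187, edgeR adjusted p = 0.00966). Mir495 (109718754 to 109718816), reported to repress Bdnf, had 1255, 1496 and 1335 CPM in WT and 854, 851 and 573 CPM in Fbxw7 KO. Replicate 3 was again the lowest KO library (−0.84, SE 0.173, adjusted p = 0.00941).

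Mir380 (109711803 to 109711863) was steady within WT, at 498, 487 and 526 CPM, and had 352, 345 and 267 CPM in Fbxw7 KO. Its log2 fold change was −0.65 (SE 0.145, edgeR adjusted p = 0.0149). These 5 members, Mir543, Mir409, Mir668, Mir495 and Mir380, kept their call in all 13 alternative fits, with a highest adjusted p of 0.0487. The other 6 lost theirs in at least 1, mostly when a library was left out.

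Mir666, 74 bases before Mir543, had 334.5, 425 and 365 CPM in WT and 275, 253 and 161 CPM in Fbxw7 KO. Here the KO libraries were widely spread, with replicate 3 well below the others, but all stayed under WT (log2 fold change −0.71, SE 0.21, edgeR adjusted p = 0.0383; without WT replicate 2 it was 0.146). Mir667 had 68.2, 83.4 and 91.5 CPM in WT and 52.4, 52.3 and 49.95 CPM in Fbxw7 KO. It was the called member in which Fbxw7 KO replicate 3 differed least from the other KO libraries (−0.65, SE 0.17, adjusted p = 0.0237, and 0.0995 without WT replicate 2).

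Mir376b belongs to the miR-376 group, whose hairpins are known substrates of adenosine-to-inosine editing. It had 929, 947 and 825 CPM in WT and 651, 680 and 476 CPM in Fbxw7 KO (log2 fold change −0.58, SE 0.156, edgeR adjusted p = 0.0265; without WT replicate 2 it was 0.102). Its hairpin shares at least 20 bases with those of Mir376c and Mir487b, so reads could be lost or split between them. Mir541, the fourth most abundant member, had 7247, 8138 and 5779 CPM in WT and 5241, 5239 and 3693 CPM in Fbxw7 KO. WT replicate 3 came near the upper KO libraries, and the call was marginal (−0.58, SE 0.186, adjusted p = 0.0498, and 0.191 without WT replicate 2).

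Mir369, a miRNA that has been used in reprogramming cells to pluripotency, had 1695, 1625 and 1416 CPM in WT and 1126, 1135 and 925 CPM in Fbxw7 KO. The groups were apart (log2 fold change −0.57, SE 0.137, edgeR adjusted p = 0.0178; without WT replicate 2 it was 0.0736). Its hairpin shares 1 base with the Mirg row, outside both arms. Mir329, one of the members that act on dendrites in neurons, had 1105, 1103 and 991 CPM in WT and 798, 837 and 621 CPM in Fbxw7 KO. It had the smallest change among those called (−0.50, SE 0.142, adjusted p = 0.033, and 0.123 without WT replicate 2). In all 11 called members the 3 KO libraries lay below the 3 WT libraries, and this held for 5 of the 18 that were not called. Among all tested miRNA genes, 20.1% had KO libraries wholly below WT and 43.8% had groups apart in either direction.

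Of the 5 most abundant members, Mir541 was called and the other 4 were not. Mir379 had 29730, 33440 and 27210 CPM in WT and 28530, 27250 and 19140 CPM in Fbxw7 KO, so the first 2 KO libraries lay within the WT range (log2 fold change −0.27, SE 0.17, edgeR adjusted p = 0.269). Mir411 had 19980, 21570 and 20120 CPM in WT and 19290, 18920 and 13170 CPM in Fbxw7 KO (−0.26, SE 0.163, adjusted p = 0.263). Its KO libraries were all below WT, the first 2 by little, and its hairpin shares at least 20 bases with that of Mir758.

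Mir381 had 7719, 10090 and 7967 CPM in WT and 7901, 7618 and 4886 CPM in Fbxw7 KO (log2 fold change −0.34, SE 0.203, edgeR adjusted p = 0.25). Mir300, whose 3p arm matches that of Mir381 at 19 of 22 positions, had 4906, 5181 and 4906 CPM in WT and 4441, 4494 and 3054 CPM in Fbxw7 KO (−0.32, SE 0.165, adjusted p = 0.19). In all 4 of these, most of the distance between the group means came from Fbxw7 KO replicate 3. Without that library their log2 fold changes were −0.10 for Mir379, −0.10 for Mir411, −0.13 for Mir381 and −0.15 for Mir300. Those of Mir543 and Mir409 were −1.15 and −0.87.

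Of the 18 members not called, 14 had negative values and the lowest was −0.48, for Mir758. The 4 with values at or above 0 were Mir494, Mir496a, Mir487b and Mir1193. Mir494 had 396, 327 and 291 CPM in WT and 379.5, 431 and 453 CPM in Fbxw7 KO, with 1 WT library inside the KO range (log2 fold change 0.32, SE 0.155, edgeR adjusted p = 0.178). It was the only tested member for which replicate 3 was the highest KO library. Mir496a had 103, 98.7 and 94.1 CPM in WT and 111, 111 and 92.5 CPM in Fbxw7 KO (0.09, adjusted p = 0.709).

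Mir487b had 101, 97 and 95.7 CPM in WT and 109, 119 and 83.3 CPM in Fbxw7 KO (log2 fold change 0.08, edgeR adjusted p = 0.754). Mir1193 had 343, 348 and 336 CPM in WT and 332.5, 383.5 and 313 CPM in Fbxw7 KO (0.00, adjusted p = 0.988). In these 3 the genotypes overlapped. The signs of Mir496a, Mir487b and Mir1193 turned negative with scaling factors from genes outside the domain, and that of Mir1193 also with RLE factors, while Mir494 stayed positive under every scaling that was run.

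Called members were found along the whole cluster, with Mir666, Mir543, Mir495 and Mir667 next to each other. Spearman's rho between log2 fold change and position was −0.19 over the 29 members, −0.20 with mean level and −0.13 with the GC content of the hairpin (28 members), all as descriptions. The 21 tested members upstream of the Mirg gene had a median of −0.34 with 7 called, and the 8 within it a median of −0.50 with 4 called. The median absolute difference in log2 fold change was 0.37 over 28 neighbouring pairs and 0.33 over all 406 pairs, so neighbours were not closer to each other than other members. The closest hairpins are Mir679 and Mir1193, 20 bases apart, which had −0.20 and 0.00. Mir412 and Mir369, 49 bases apart, had −0.42 and −0.57. Mir409 and Mir412, 52 bases apart, had −0.94 and −0.42. Mir412 shares 12 bases with the Mirg row, which reach part of its 3p arm, so reads of that arm may not be counted. Mir666 and Mir543, 74 bases apart, had −0.71 and −1.29. Differences between neighbours were not tested.

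Members that share a seed had these changes side by side. Mir379 and Mir411 were close, at −0.27 and −0.26. Mir379 and Mir1193 stood at −0.27 and 0.00. Mir376b fell (−0.58), and Mir376c, whose 5p arm differs from it at 1 of 22 positions, had 199, 201 and 153 CPM in WT and 173, 174 and 129.6 CPM in Fbxw7 KO (−0.22, SE 0.181, edgeR adjusted p = 0.414). Mir758 had 55.8, 56.6 and 83.2 CPM in WT and 45.4, 49.9 and 44.6 CPM in Fbxw7 KO (−0.48, SE 0.203, adjusted p = 0.121). Mir1197 had 19.1, 23.8 and 20.5 CPM in WT and 24.3, 22.1 and 15.4 CPM in Fbxw7 KO (−0.04, SE 0.222, adjusted p = 0.916), and its sign turned with library totals as the only scaling. Differences within these pairs were not tested. Both arms of a hairpin fall into 1 count, so which arm was measured is not known here.

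Several 5p arms of the cluster share a seed form, noticed after the values were seen. The seed GGUNNNC, with N any base, was found in 14 of the 71 arms (19.7%), each of a different member and labelled 5p except miR-453, which has no arm label. It was found in 18 of the 1679 mature mouse miRNAs of the RefSeq table (1.07%), so that 4 lay outside the cluster. Mir379, Mir1193, Mir758, Mir1197, Mir494, Mir410, Mir496a, Mir453 and Mir409 show it above. Of the 10 tested members with this form 1 was called lower, Mir409, with a median log2 fold change of −0.14. Of the 19 without it 10 were called, with a median of −0.50. This split was chosen on these data and carries no test.

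Libraries of one genotype differed in the level of many members at once, more so in Fbxw7 KO. Fbxw7 KO replicate 3 was the lowest KO library for 28 of the 29 tested members (96.6%), where this held for 43.5% of all tested miRNA genes. The exception was Mir494. The ratio of Fbxw7 KO replicate 3 to the mean of the other KO libraries ran from 0.542 to 1.12, with a median of 0.742, against a median of 0.999 over all 283 tested genes. In WT the order was less uniform. Replicate 2 was the highest library for 18 of the 29 (62.1%, and 34.6% of all tested genes), and the lowest was replicate 3 for 17, replicate 1 for 10 and replicate 2 for 2. After the mean of each genotype was removed, the median Pearson correlation between pairs of members across the 6 libraries, Fbxw7 KO replicate 3 among them, was 0.75, and 0.00 between pairs of all tested genes. These are descriptions, since all members share the same libraries and their scaling. Fbxw7 KO replicate 3 is also the library with the highest fibroblast and muscle miRNA shares given above. Shares are parts of one total, so a smaller domain share by itself makes the others larger. In Fbxw7 KO replicates 1 to 3, Mir21a of the fibroblast list had 276400, 265900 and 271000 CPM and Mir143 222500, 216700 and 225900. Mir27b was higher in replicate 3, at 38440, 40100 and 61280 CPM. So were Mir100 (20780, 20830 and 26870), Mir145a, Mir125b-1, Mir125b-2, Mir199b and Mir31. Mir10a (29030, 29440 and 26190) and Mir10b (18290, 18750 and 15630) were lower there. The muscle share was nearly all Mir206, at 220.8, 212 and 389.6 CPM. The part of these lists in the low cluster level was not tested.

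**Figure D4:**
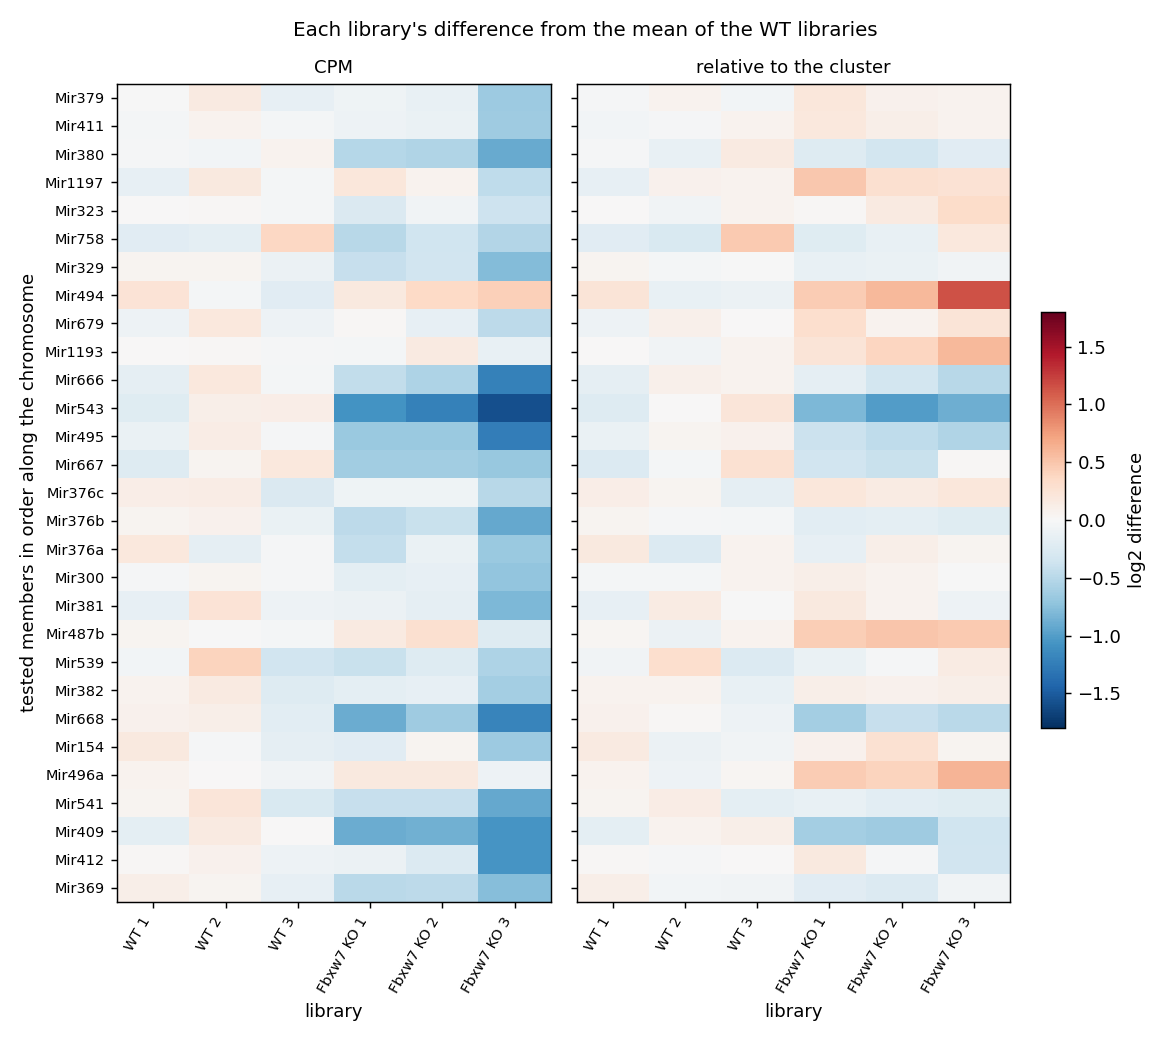
Log2 difference of each library from the mean of the WT libraries for the 29 tested members in chromosome order, as CPM at left and relative to the cluster at right, with blue for lower and red for higher. The blue column of Fbxw7 KO replicate 3 at left is absent at right, where the scaling removes a shift shared by the members. Mir543 stays blue and Mir494 red at right in all 3 KO libraries.

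To set each member against the rest of the cluster, the fit was repeated with each library scaled by the median ratio over the 29 tested members, a step added after the values were seen. By construction this puts about as many members above 0 as below. It also removes any shift that the members of a library share, such as that of Fbxw7 KO replicate 3, and moves the genes outside the cluster. With it 2 of the 29 members passed the test (6.9%), against 26.5% of all 283 tested miRNA genes, and 8 had an unadjusted p under 0.05, 4 higher and 4 lower. Mir543 fell relative to the cluster by 0.90 on the log2 scale (SE 0.187, edgeR adjusted p = 0.00973). Its values relative to the WT mean were −0.23, 0.01 and 0.22 in WT and −0.80 and −0.88 in Fbxw7 KO replicates 1 and 3, with replicate 2 a little lower, so replicate 3 no longer stood apart. The call of Mir543 was lost in 1 of 8 alternatives (adjusted p = 0.0514 without WT replicate 2).

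Mir494 rose relative to the cluster by 0.75 on the log2 scale (SE 0.227, edgeR adjusted p = 0.0373). Its values were 0.24, −0.13 and −0.11 in WT and 0.46, 0.585 and 1.14 in Fbxw7 KO, the last more than the others. This call was lost in 4 of 8 alternatives, with the cluster sum as scale (adjusted p = 0.0669) and without WT replicate 1, 2 or 3 (0.0642, 0.151 and 0.109). Mir409 (−0.53, adjusted p = 0.0524), Mir668 (−0.51, adjusted p = 0.0643) and Mir495 (−0.46, adjusted p = 0.0666) did not pass, though their KO libraries were all below WT on this scale. Mir380, called in the first fit, had −0.26 (adjusted p = 0.264). Mir496a (0.49, adjusted p = 0.0677), Mir487b (0.47, adjusted p = 0.0722) and Mir1193 (0.41, adjusted p = 0.102) had KO libraries all above WT, and did not pass either.

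The tested miRNA genes in the other regions of the domain all had negative log2 fold changes, at most −0.10 and −0.50 in the regions below. In the Meg3 and anti-Rtl1 region 3 of 9 tested miRNA genes fell and 0 rose (median log2 fold change −0.56), and in the Rian region 2 of 3 fell and 0 rose (−0.72). Among the 242 tested genes outside the 3 regions 13 fell and 43 rose (0.13). At an unadjusted p under 0.05 the counts were 5, 3 and 20 lower and 0, 0 and 61 higher. The differences between the 3 regions were not tested.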

How the data were processed

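Small RNA was sequenced from 3 WT and 3 Fbxw7 KO fibroblast samples with Illumina small RNA chemistry, per the labels' protocols. The authors deposited whole-number read counts per gene name, made with featureCounts 1.6.4 with strand ignored, per the file headers. The recorded command has no option that counts reads with several alignments or over 2 features. Per the submitters' processing notes the build was mm10 and the tools included Cufflinks 2.2.1, SAMtools 1.5 and TopHat2 2.1.1. How adapters were trimmed is not given in the sources used here. FPKM values that the authors also deposited were not used.

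Genotypes were compared on the counts with edgeR 4.0.16 (R 4.3.3; TMM factors, filterByExpr with a minimum count of 10 and total of 15, robust glmQLFit, glmQLFTest, 2-sided) with genotype as the only term. Adjusted p-values are Benjamini-Hochberg values over all 283 tested genes, with a threshold of 0.05. The SE comes from the F statistic. DESeq2 1.42.0, other scalings, filters, a replicate block and leaving out each library were alternatives. The test was checked on simulated counts. No pair of replicates agreed within sampling noise (chi-square per degree of freedom at least 106). The named members are those called, the 5 most abundant, the first and last, those with values at or above 0 and those sharing a seed. Members and lists were chosen with earlier results of these data known.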

Additional observations from a re-analysis of the deposited data

How the results depend on the processing

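The count of 11 lower and 0 higher members was the same with DESeq2, RLE factors, library totals alone, factors from genes outside the domain, a mean of at least 10 CPM and a replicate block, and was 10 and 0 without a filter on low counts. It was 9 without members that overlap another row. Leaving out 1 library gave 5 to 10 lower and 0 higher, a median log2 fold change of −0.53 to −0.17 and a share difference of −2.08 to −0.939 points. Factors from outside the domain moved the median of all genes from 0.05 to −0.07 and that of the members from −0.40 to −0.52. Replicate numbers did not pair the libraries (correlations of deviations −0.05, 0.14 and 0.18), and with the replicate block 11 members were lower, and 1 of the 3 numbers was matched best by its own partner.

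Signs turned only in 4 members, none of them called. Mir1193 was −0.03 with DESeq2, RLE factors or a mean of at least 10 CPM, −0.12 with factors from outside the domain, −0.00 with the replicate block and −0.11 to 0.07 over the leave-outs. Mir487b and Mir496a were −0.04 with factors from outside the domain, and Mir487b ran from −0.05 to 0.23 over the leave-outs. Mir1197 was 0.01 with library totals alone and ran from −0.18 to 0.15 over the leave-outs. The cause was not tested. The smallest change called among the members was −0.50, and the 18 members not called may differ by less than the spread between libraries can show.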
